A study of Oryza sativa with 18 samples.

Results

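Rice genes of the NRAMP and MTP families were followed in roots and shoots under sufficient Zn, Zn deficiency and Zn resupply. They were chosen by name, as the loci of the gene table that carry the RAP identifiers of 5 NRAMP genes (OsNRAMP1, OsNRAMP2, OsNRAMP3, OsNRAMP5 and OsNRAT1) and 4 MTP genes (OsMTP8.1, OsMTP8.2, OsMTP9 and OsMTP11). The 9 genes were found on 10 of 34716 loci. The rule goes by name and identifier alone and holds no expression value.

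NRAMP proteins carry divalent metals such as Mn and Fe into the cytoplasm, from outside the cell or from a compartment. MTP proteins, of the cation diffusion facilitator (CDF) family, move metals the other way, out of the cytoplasm into a vacuole or Golgi compartment or out of the cell. In rice roots, Mn is taken up by OsNRAMP5 at the outer face of the exodermis and endodermis and passed on towards the stele by OsMTP9 at the inner face of the same cells. OsNRAT1 belongs to the NRAMP family but carries trivalent Al, and the annotation in the gene table names it an Al influx transporter. Mn transport is therefore not common to all 9 genes.

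Poly(A) RNA of Nipponbare seedlings was sequenced in 18 libraries, 3 in each of 6 groups, and each library was made from a pool of 3 seedlings. The seedlings were labelled as 4 weeks old, shoots were leaf and stem, and roots were the whole root system. The +Zn groups, ZPS for shoots and ZPR for roots, had 1.5 µM ZnSO4 throughout. The -Zn groups, ZMS and ZMR, had no ZnSO4 for 2 weeks. The resupplied groups, ZRS and ZRR, had 1.5 µM ZnSO4 again for 3 days after 2 weeks without it. The resupplied plants were thus treated for 3 days longer than the -Zn plants, and resupply cannot be told apart from this added time. Whole organs were sampled, so a change in the share of a cell type and a change in RNA per cell cannot be told apart.

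Values are FPKM, that is fragments scaled to transcript length and to the mapped reads of the library, so that levels can be compared between genes. Depth, as coverage per FPKM, was between 3.67 and 7.75, with the lowest value in ZRR replicate 3. ZRS replicate 1 stood apart in another way. It had 16.8% of its summed isoform FPKM on transcripts of class codes i, e, p and u, such as intergenic ones. The other libraries had at most 5.14%. The summed FPKM of the root markers was 747 to 2388 in roots and 4.12 to 16.7 in shoots. That sum rested on OsLsi1 and OsLsi2, since RCc3, OsAMT1;2 and OsNRT2.1 were at or near 0 in most root libraries. The summed FPKM of green tissue markers was 9091 to 18620 in shoots and 230.1 to 426 in roots. The Zn transporter genes OsZIP4, OsZIP8 and OsZIP10 were higher under -Zn in both tissues, 3 of 3 past the thresholds in each.

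A gene was called where it differed in limma by 1 or more on the log2 scale, in either direction, at a Benjamini-Hochberg adjusted p not above 0.05 over all tested loci. Fold changes are on the log2(FPKM + 0.5) scale, which understates the change of low genes. The level of each gene by library is plotted first.

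**Figure D1:**
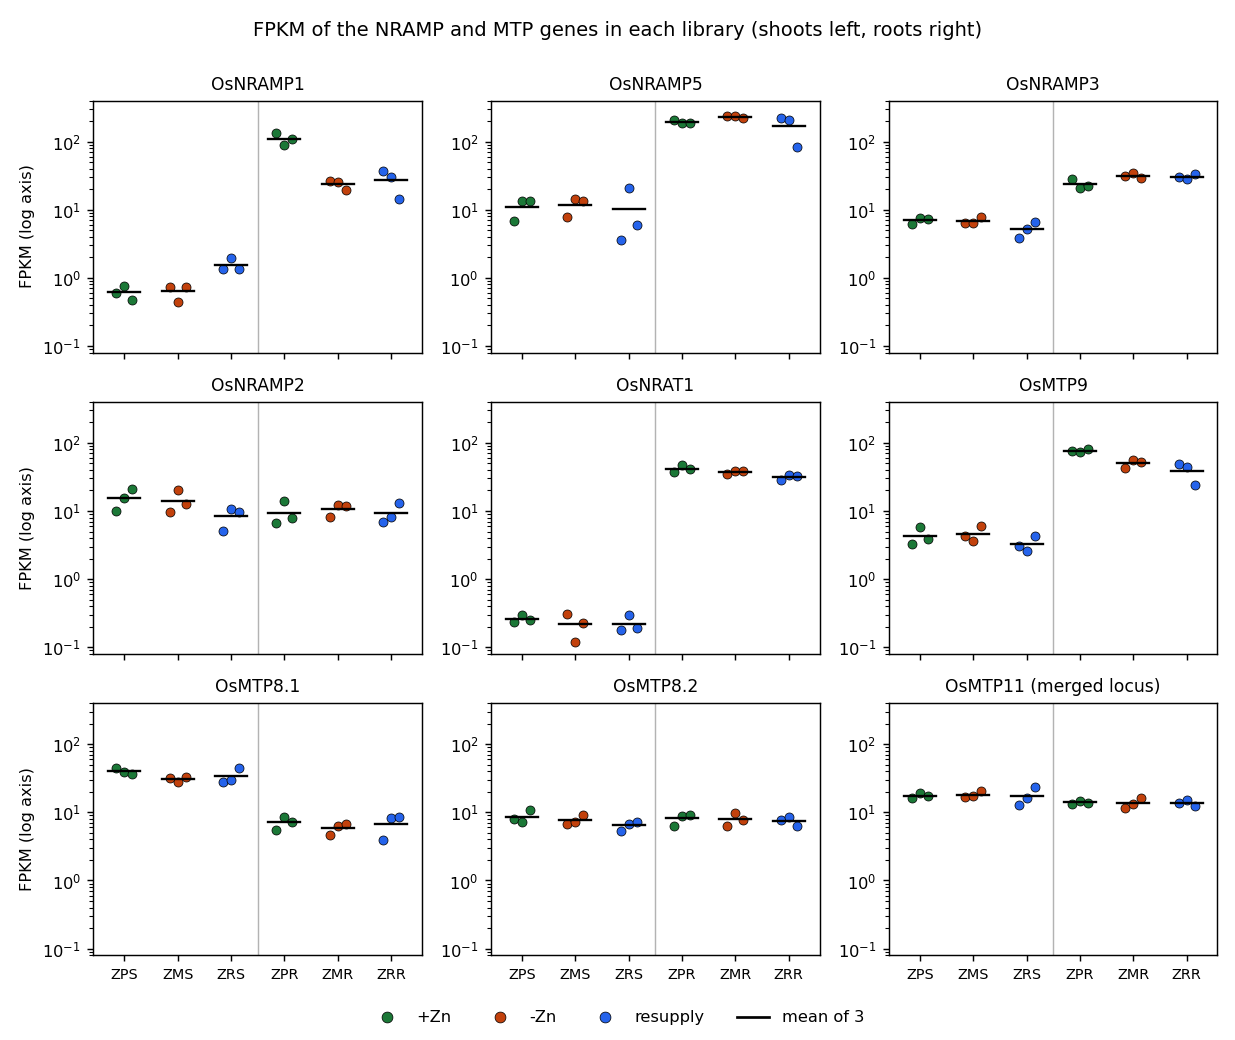
FPKM of the 9 genes in each of the 18 libraries (log axis, coloured points; black bars are means of 3), with shoots left and roots right of the grey line. OsNRAMP1, OsNRAMP5, OsNRAMP3, OsNRAT1 and OsMTP9 lie higher in every root library than in every shoot library, OsMTP8.1 lies lower, and the 3 +Zn root libraries of OsNRAMP1 (88.7 to 132) stand above its 6 other root libraries (14.3 to 37.0).

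The first comparison asked where in the plant each transporter gene is expressed. Of the 9 genes, 6 passed the thresholds between root and shoot at each of the 3 Zn supplies, with 5 higher and 1 lower in roots. Among the 5, OsNRAT1 passed the filter through its root libraries alone, so its call was bound to appear. Root and shoot differed widely over all genes, with 34.1% of 24431 tested loci called in ZPR/ZPS, 31.9% in ZMR/ZMS and 39.4% in ZRR/ZRS. The median log2 root over shoot of all tested loci was 0.38, 0.36 and 0.58 in the same order, and 0.14 to 0.16 after quantile normalization, while that of the 9 genes was 1.68, 2.12 and 2.45. The 6 genes were called in 30 of 30 alternative settings at each supply.

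OsNRAMP5 (Os07g0257200, chromosome 7, 8871422 to 8879127 of IRGSP-1.0, minus strand) encodes the main Mn uptake transporter of the root, which also lets Cd in. It was the highest of the 9 genes in roots at every supply. The +Zn roots had 204, 187 and 187 FPKM, the -Zn roots 240, 235 and 222 FPKM, and the resupplied roots 220, 205 and 82.9 FPKM. In shoots it was 6.74, 13.2 and 13.3 FPKM in ZPS, 7.70, 14.3 and 13.2 FPKM in ZMS, and 3.54, 20.8 and 5.995 FPKM in ZRS. No root library overlapped with a shoot library, and the log2 root over shoot was 4.12 ± 0.50 (SE, n = 3 against 3) in +Zn, 4.29 in -Zn and 4.24 in resupplied plants, with limma adjusted p of 7.3e-06, 4.9e-06 and 5.7e-06.

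OsNRAMP1 (Os07g0258400, chromosome 7, 8965853 to 8970882, plus strand) lies on the same chromosome as OsNRAMP5 and encodes another plasma membrane NRAMP of the root, linked in rice to Fe, Mn and Cd uptake. Root libraries were at 132, 88.7 and 109 FPKM with Zn, at 26.2, 25.3 and 19.5 FPKM without it, and at 37.0, 30.6 and 14.3 FPKM after resupply. In shoots it was at 0.594, 0.765 and 0.476 FPKM in ZPS, 0.741, 0.445 and 0.735 FPKM in ZMS, and 1.37, 1.94 and 1.34 FPKM in ZRS. Its root to shoot distance was the widest of the 9 genes in +Zn plants and narrower in the other 2 treatments. The log2 root over shoot was 6.62 ± 0.29 in ZPR/ZPS, 4.41 ± 0.29 in ZMR/ZMS and 3.67 ± 0.29 in ZRR/ZRS (SE, limma adjusted p 2.1e-10, 8.7e-09 and 6.5e-08).

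OsNRAT1 (Os02g0131800, chromosome 2, 1658454 to 1664579, minus strand), the Al influx transporter, was almost only seen in roots. Its root values were 37.7, 47.6 and 40.9 FPKM under +Zn, 34.6, 39.2 and 38.8 FPKM under -Zn, and 28.4, 33.5 and 32.8 FPKM with resupply. The 9 shoot libraries lay between 0.122 and 0.309 FPKM, a mean coverage of 0.866 to 2.24, and a level this low is hard to tell from 0. It did not pass the filter for tests within shoots, and it passed that of the 18 libraries through its root libraries alone, so that a difference between the organs was bound to appear. The log2 root over shoot was 5.80, 5.73 and 5.47 in +Zn, -Zn and resupplied plants (SE 0.15 each, limma adjusted p 4.6e-12, 5.4e-12 and 7.0e-12).

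OsMTP9 (Os01g0130000, chromosome 1, 1672279 to 1684591, minus strand), the efflux partner of OsNRAMP5, had the third highest level of the 9 in +Zn roots and the second highest in the other root groups. Libraries of +Zn roots held 76.8, 73.2 and 81.2 FPKM, those of -Zn roots 42.3, 57.0 and 51.5 FPKM, and those of resupplied roots 48.4, 43.9 and 24.5 FPKM. In shoots it ranged from 2.63 to 6.01 FPKM, with a median of 3.91 FPKM. Roots lay above shoots in every library, by 4.05, 3.31 and 3.34 on the log2 scale at the 3 supplies (limma adjusted p 9.3e-09, 8.4e-08 and 8.4e-08).

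OsNRAMP3 (Os06g0676000, chromosome 6, 28059391 to 28065191, minus strand) is known in rice as a vascular transporter of nodes, which distributes Mn between leaves. It was present in both organs, with 27.9, 21.0 and 22.3 FPKM in +Zn roots, 31.4, 34.0 and 29.4 FPKM in -Zn roots, and 29.9, 27.9 and 33.4 FPKM in resupplied roots. In shoots it ranged from 3.796 to 7.78 FPKM with a median of 6.45 FPKM, below every root library. The log2 root over shoot was 1.68, 2.12 and 2.45 (limma adjusted p 2.0e-06, 1.7e-07 and 3.8e-08), the smallest of the 5 root-high genes.

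OsMTP8.1 (Os03g0226400, chromosome 3, 6636557 to 6641680, plus strand) encodes a tonoplast transporter that stores Mn in vacuoles and gives shoots tolerance to excess Mn. It was the one gene of the 9 that was called as higher in shoots. Its level was 44.6, 38.6 and 36.9 FPKM in ZPS, 31.9, 28.02 and 33.4 FPKM in ZMS, and 27.8, 29.6 and 44.1 FPKM in ZRS, against 3.91 to 8.61 FPKM over the 9 root libraries. By locus FPKM it was the highest of the 9 genes in all 3 shoot groups. There it did not overlap with the next, the merged locus of OsMTP11 described below. In summed isoform FPKM its ZRS libraries (52.4, 54.8 and 67.1) overlapped with those of the OsMTP11 transcripts alone (27.7, 36.6 and 62.1). In ZPS and ZMS these sums did not overlap, with transcripts that span OsMTP11 and its neighbour left out. The log2 root over shoot was -2.42, -2.32 and -2.26 (limma adjusted p 2.1e-06, 3.5e-06 and 4.7e-06).

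OsMTP8.2 (Os02g0775100, chromosome 2, 32721061 to 32723489, plus strand), the close relative of OsMTP8.1, showed no such preference. It was between 5.38 and 10.7 FPKM in shoots and between 6.23 and 9.65 FPKM in roots, and the 95% confidence interval of its log2 root over shoot in +Zn plants was -0.52 to 0.39. Within a library OsMTP8.1 was 3.46 to 6.06 times as high as OsMTP8.2 in shoots and 0.514 to 1.33 times as high in roots. The pair thus differed in level mainly in shoots, by a ratio for which no test was made.

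OsNRAMP2 (Os03g0208500, chromosome 3, 5655157 to 5659172, minus strand), which in rice is known as a vacuolar Fe transporter, was between 5.04 and 21.1 FPKM in shoots and between 6.62 and 13.9 FPKM in roots. Its groups overlapped widely, and the interval of its log2 root over shoot in +Zn plants was -1.49 to 0.11. OsMTP11 (Os01g0837800), a Mn transporter of the Golgi and nearby compartments, could not be read on its own. Its locus (chromosome 1, 35917367 to 35929394, minus strand) was merged in the assembly with Os01g0837900, a gene whose GO terms in the table are those of a kinase, and holds 17 transcripts, of which 3 are of OsMTP11, 12 of the neighbour and 2 span both. The merged locus was at 12.9 to 23.2 FPKM in shoots and 11.5 to 16.2 FPKM in roots. It was lower in roots without overlap in +Zn and in -Zn plants, overlapped in resupplied plants, and was not called. The summed FPKM of the 3 OsMTP11 transcripts was 36.1, 42.3 and 39.98 in ZPS, 35.7, 37.7 and 18.2 in ZMS, and 18.8, 22.9 and 22.1 in ZPR. In ZMS replicate 3 the 2 spanning transcripts, not in this sum, held 26.5 FPKM. On the 3 OsMTP11 transcripts alone, chosen after seeing the data, the log2 root over shoot was -0.88 in +Zn, -0.45 in -Zn and -0.96 in resupplied plants (limma adjusted p 0.0401, 0.290 and 0.0234). None reached a fold of 1 on the log2 scale. The part of ZMS replicate 3 in the -Zn value was not tested.

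**Figure D2:**
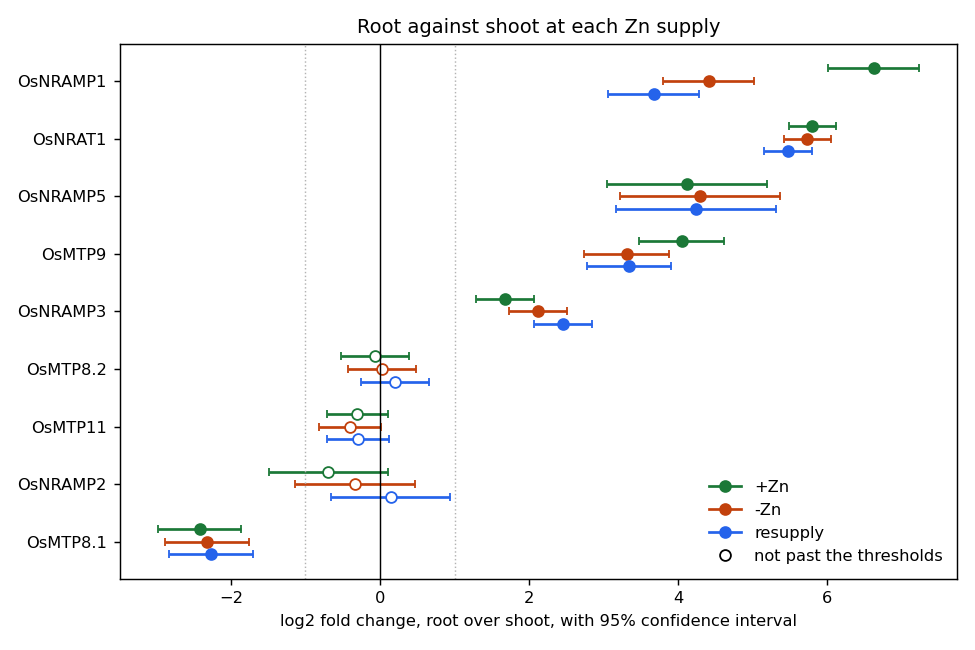
Log2 fold change of root over shoot for the 9 genes (points) with 95% confidence intervals (bars) in +Zn, -Zn and resupplied plants. Open points did not pass the thresholds, and dotted lines mark a log2 fold change of 1 in either direction. OsNRAMP1 moves from 6.62 in +Zn to 3.67 in resupplied plants, and OsMTP8.1 is the one called gene on the negative side.

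In order of level, +Zn roots had OsNRAMP5 at 192.6 ± 9.92 FPKM (SD, n = 3), OsNRAMP1 at 109.9 ± 21.6, OsMTP9 at 77.1 ± 4.02, OsNRAT1 at 42.1 ± 5.07 and OsNRAMP3 at 23.7 ± 3.68. None of these neighbours overlapped in its libraries. The lower 4 genes, OsMTP11, OsNRAMP2, OsMTP8.2 and OsMTP8.1, lay between 7.15 and 14.0 FPKM on average and each overlapped with the next. In this order, for roots and shoots alike, OsMTP11 stands at the level of its merged locus. In -Zn roots OsNRAMP1 stood at 23.7 ± 3.63 FPKM, below OsMTP9, OsNRAT1 and OsNRAMP3, and each of these neighbours was again separate. In resupplied roots the order from OsMTP9 down to OsNRAMP1 was not resolved, because each overlapped with the next. In +Zn shoots OsMTP8.1 stood first at 40.03 ± 4.08 FPKM, OsMTP11, OsNRAMP2, OsNRAMP5, OsMTP8.2 and OsNRAMP3 overlapped in turn between 17.5 and 7.03 FPKM, and OsMTP9 at 4.30, OsNRAMP1 at 0.612 and OsNRAT1 at 0.261 FPKM were each separate from the next.

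The second comparison asked how roots responded to Zn deficiency. In ZMR/ZPR none of the 9 genes was called by limma, and 3 had an unadjusted p under 0.05 (OsNRAMP1, OsMTP9 and OsNRAMP3). By this fit calls were rare over all loci as well, at 0.0460% of 21717 tested loci, all 10 of them higher under -Zn. The study, using Cuffdiff at the same thresholds, reported more genes in this comparison, in both directions. The groups did not overlap for 4 of the 9 genes, OsNRAMP3 and OsNRAMP5 on the higher side and OsNRAMP1 and OsMTP9 on the lower, against 9.23% of all tested loci.

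OsNRAMP1 had the widest distance, 23.7 ± 3.63 FPKM in ZMR against 109.9 ± 21.6 FPKM in ZPR. All 3 -Zn libraries, at 19.5 to 26.2 FPKM, lay far below the lowest +Zn library at 88.7 FPKM. The log2 fold change was -2.18 (95% confidence interval -2.95 to -1.41), with an unadjusted p of 0.00016, rank 33 among all tested loci, and a limma adjusted p of 0.103, so it did not pass. This call turned with the setting. OsNRAMP1 passed in 4 of 22 alternatives, with limma adjusted p of 0.0325 where zeros were taken as missing, 0.0220 with only the 6 libraries compared, 0.0020 with all 18 libraries in 1 fit and 0.0091 without ZRR replicate 3, and over all 22 the adjusted p ran from 0.0020 to 0.445. The fold change itself stayed between -2.33 and -2.04.

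For OsMTP9 the -Zn libraries, at 42.3 to 57.0 FPKM, were all below the +Zn libraries, at 73.2 to 81.2 FPKM. Its log2 fold change was -0.62 with an interval of -1.20 to -0.04 (unadjusted p 0.038, limma adjusted p 1.0). OsNRAMP5 and OsNRAMP3, by contrast, were slightly higher in -Zn roots, with log2 fold changes of 0.27 (-0.51 to 1.05) and 0.41 (0.07 to 0.76), and neither passed. For OsNRAT1, OsNRAMP2, OsMTP8.1, OsMTP8.2 and OsMTP11 the log2 fold changes lay between -0.25 and 0.22, and their groups overlapped.

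The proportion of OsNRAMP5 to OsNRAMP1 and to OsMTP9 was also followed within each root library. Within each library OsNRAMP5 was 1.55, 2.11 and 1.71 times as high as OsNRAMP1 under +Zn, 9.16, 9.26 and 11.4 times as high under -Zn, and 5.93, 6.71 and 5.80 times as high after resupply. The ratio of OsNRAMP5 over OsMTP9 came to 2.66, 2.56 and 2.30 under +Zn, 5.68, 4.12 and 4.31 under -Zn, and 4.54, 4.68 and 3.39 after resupply. Neither ratio overlapped between the +Zn roots and the other 2 groups. Between +Zn and -Zn roots this was bound to appear, since OsNRAMP5 was higher and OsNRAMP1 and OsMTP9 were lower without overlap. The ratios there restate those values and add no support. A ratio within a library does not depend on how the library was scaled, and no test was made on it.

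**Figure D3:**
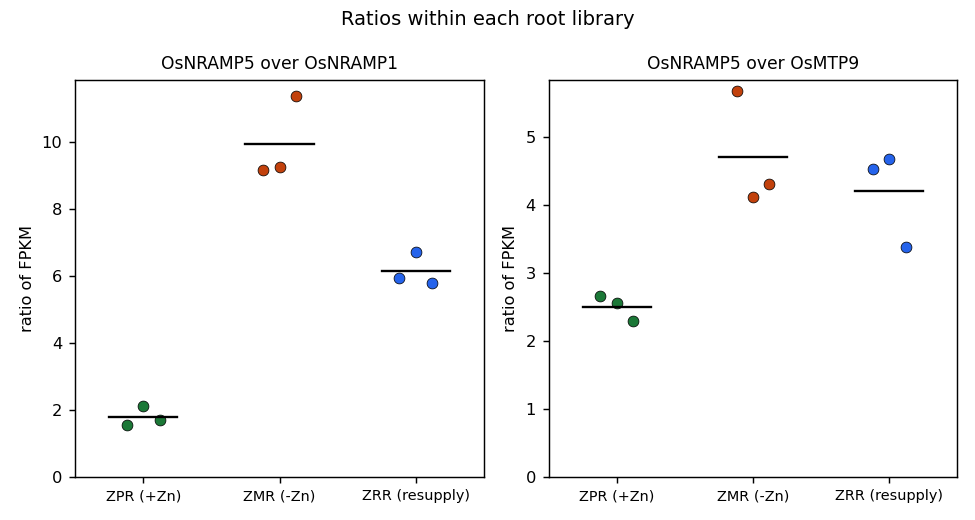
Ratio of FPKM of OsNRAMP5 over OsNRAMP1 (left) and over OsMTP9 (right) within each of the 9 root libraries (points), with the mean of 3 (bars). The first ratio averages 1.79 under +Zn, 9.93 under -Zn and 6.15 after resupply, and ZRR replicate 3, the shallowest library, sits with its group at 5.80.

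Resupply for 3 days was then compared with both other treatments in roots. In ZRR/ZMR none of the 9 genes was called by limma, none had an unadjusted p under 0.05, and 0.124% of all tested loci were called. OsNRAMP1 was at 27.3 ± 11.7 FPKM in ZRR against 23.7 ± 3.63 FPKM in ZMR, a log2 fold change of 0.11 with an interval of -0.66 to 0.88, and the groups overlapped. The Zn transporter genes OsZIP4, OsZIP8 and OsZIP10, in the same libraries, were lower after resupply, 3 of 3 past the thresholds. The groups did not overlap for OsNRAMP5 and OsNRAT1, both lower after resupply, against 7.61% of all tested loci. Their log2 fold changes were -0.58 (-1.36 to 0.21) and -0.25 (-0.57 to 0.08), and without ZRR replicate 3, where OsNRAMP5 was at 82.9 FPKM, that of OsNRAMP5 was -0.13.

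In ZRR/ZPR none of the 9 genes was called by limma, 4 had an unadjusted p under 0.05, and 0.0230% of all tested loci were called. OsNRAMP1, OsMTP9 and OsNRAT1 were lower in resupplied roots with no overlap of the groups, against 8.34% of all tested loci. For OsNRAMP1 the log2 fold change was -2.08 (-2.85 to -1.31, limma adjusted p 0.173), and -1.67 without ZRR replicate 3. It passed in 2 of 22 alternatives, with limma adjusted p of 0.0396 where zeros were taken as missing and 0.0035 with all 18 libraries in 1 fit. OsMTP9 had a log2 fold change of -1.03 (-1.61 to -0.45, unadjusted p 0.0032, limma adjusted p 0.483), and -0.74 without ZRR replicate 3. OsNRAT1 had one of -0.40 and OsNRAMP3 one of 0.36. ZRR replicate 3 had the lowest value of its group for OsNRAMP1, OsNRAMP5, OsMTP9, OsMTP8.2 and OsMTP11 and the highest for OsNRAMP3, OsNRAMP2 and OsMTP8.1, and the part of its depth in these values was not tested.

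In shoots the 8 genes that passed the filter differed less. None was called by limma in ZMS/ZPS and none had an unadjusted p under 0.05, with 0.0878% of 20512 tested loci called. Their log2 fold changes lay between -0.36 and 0.12. OsMTP8.1 was the one gene whose groups did not overlap, at 28.02 to 33.4 FPKM in ZMS and 36.9 to 44.6 FPKM in ZPS, against 6.50% of all tested loci. Its log2 fold change was -0.36 with an interval of -0.84 to 0.12.

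After resupply OsNRAMP1, low as it is in shoots, was the gene that stood apart. Its 3 ZRS libraries, at 1.34 to 1.94 FPKM, lay above all ZMS libraries (0.445 to 0.741 FPKM) and all ZPS libraries (0.476 to 0.765 FPKM). It was the only one of the 8 without overlap in ZRS/ZMS and in ZRS/ZPS, against 10.1% and 8.43% of all tested loci. The log2 fold change was 0.84 in ZRS/ZMS (unadjusted p 0.0065, limma adjusted p 0.631) and 0.88 in ZRS/ZPS (0.0052 and 0.983), and 0.91 and 0.94 without ZRS replicate 1. No gene of the 8 was called by limma in these 2 comparisons, in which 0.0683% and 0.0244% of all tested loci were called and OsNRAMP1 alone had an unadjusted p under 0.05. The remaining 7 genes had log2 fold changes between -0.84 and 0.09, beside a median of all tested loci of -0.19 in ZRS/ZMS and -0.16 in ZRS/ZPS that was near 0 after quantile normalization. OsNRAMP5 spread most within a group, from 3.54 to 20.8 FPKM in ZRS. The Zn transporter genes OsZIP4, OsZIP8 and OsZIP10 were all lower in ZRS/ZMS (median log2 -2.69), but only 1 of 3 passed the thresholds.

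**Figure D4:**
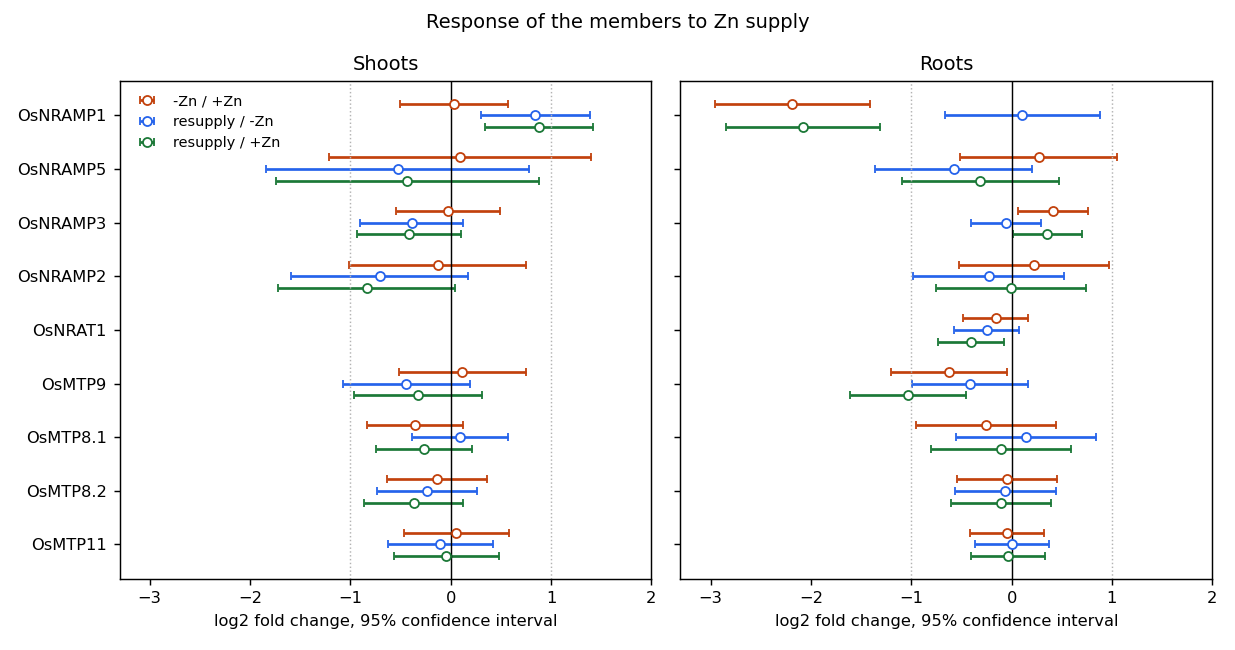
Log2 fold changes of the tested genes between Zn treatments (points) with 95% confidence intervals (bars) in shoots (left) and roots (right). No point passed the thresholds, and the interval of OsNRAMP1 in ZMR/ZPR (-2.95 to -1.41) and in ZRR/ZPR (-2.85 to -1.31) lies wholly below -1.

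Whether the response to Zn deficiency differed between root and shoot was tested as an interaction over all 18 libraries. For OsNRAMP1 the response was -2.18 in roots and 0.03 in shoots, and the interaction was -2.22 (interval -3.08 to -1.35, unadjusted p 6.8e-05, limma adjusted p 0.0878). None of the 9 genes was called, 1 had an unadjusted p under 0.05, and 0.0655% of all tested loci were called. The interaction of OsNRAMP1 passed in 4 of 29 alternatives, and its adjusted p ran from 0.0027 to 0.332. The fold in shoots rests on values near the 0.5 FPKM filter. For the response to resupply, none of the 9 was called and none had an unadjusted p under 0.05, with 0.106% of all tested loci called. The interaction of OsNRAMP1 was then -0.74 (-1.60 to 0.13).

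The transcripts behind the locus values also differed between organs. For OsMTP9 the annotated transcript of 6 exons held 92.1 to 98.5% of the summed isoform FPKM in the 9 shoot libraries and 27.8 to 46.3% in the 9 root libraries. An assembled transcript of 7 exons, which extends beyond the annotated one at both ends, held 0.659 to 7.86% in shoots and 52.6 to 71.1% in roots. The ranges did not overlap. No test was made on these shares, which are estimates of the authors' assembly.

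**Figure D5:**
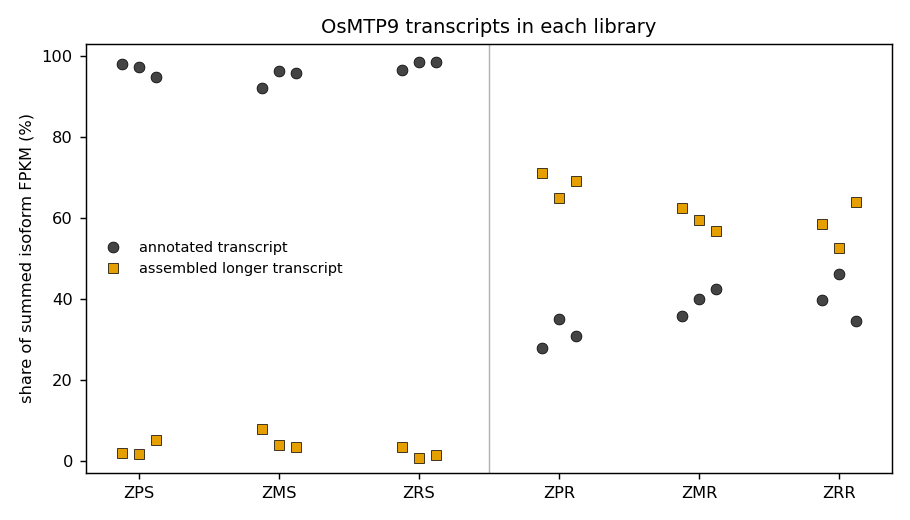
Share of the summed isoform FPKM of OsMTP9 held by the annotated transcript (circles) and by a longer assembled transcript (squares) in each of the 18 libraries. The annotated transcript holds at least 92.1% in every shoot library and at most 46.3% in every root library.

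The other genes gave less steady shares. OsNRAMP2 was split evenly between its 2 annotated transcripts, with a median of 49.9% for the first in shoots and 49.8% in roots. OsNRAMP5 was given wholly to its annotated transcript in the median library of each organ, but in ZRR replicate 1 wholly to an assembled one, although its locus value there, 220 FPKM, was like that of ZRR replicate 2. For OsNRAMP3 the leading assembled transcript held a median of 69.8% in shoots and 34.5% in roots, with ranges that overlapped.

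Several of the loci share their span with a locus on the opposite strand, and the sources used here do not state that reads were counted by strand. Os07g0257400, a hypothetical gene within the span of OsNRAMP5, was at 77.7 to 119 FPKM in the ZPR and ZMR libraries and at 2.12 to 9.10 FPKM in shoots. Over the 18 libraries it was also the locus most like OsNRAMP5, with Pearson's r of 0.997 and Spearman's rho of 0.957 on the log2 scale. OsNRAMP1 has such a partner in Os07g0258501, at 3.42 to 5.48 FPKM in ZPR and 0.726 to 1.80 FPKM in ZMR. OsMTP9, OsNRAT1, OsMTP8.1 and OsMTP8.2 overlap with opposite-strand loci as well, and reads of such pairs cannot be told apart here. A second locus that carries the name of OsNRAMP5, a single exon at 8870195 to 8870485 of chromosome 7, was above 0 only in ZMR replicate 1 (1.04 FPKM) and ZMS replicate 1 (0.148 FPKM) and was not tested.

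Loci with the most similar pattern were found by Pearson's r over the 18 libraries, which mostly follows the difference between root and shoot. OsNRAMP1 was most like Os01g0952800 (r = 0.990, rho = 0.942), Os11g0262600 (r = 0.990, rho = 0.971) and Os11g0151500, a major facilitator superfamily gene (r = 0.987, rho = 0.794). OsMTP9 was most like Os10g0122600, annotated as a Sec14 and nodulin domain gene of root hair elongation (r = 0.995, rho = 0.961). OsNRAT1 was most like Os11g0152700, a HBP-1b transcription factor gene (r = 0.997, rho = 0.833), and a major intrinsic protein gene, Os04g0521100 (r = 0.997, rho = 0.903). OsMTP8.1 was most like a merged locus of Os08g0130400 and Os08g0130300, annotated for an AMP-dependent synthetase and a hypothetical conserved gene (r = 0.992, rho = 0.963), and next like an ftsH protease gene (Os01g0618800, r = 0.990, rho = 0.955) and a pyruvate phosphate dikinase gene (Os05g0405000, r = 0.989, rho = 0.934). OsMTP8.2 had no close match, with r of at most 0.811. Among the 9 root libraries alone OsNRAMP1 and OsMTP9 had r of 0.863 and rho of 0.733, a description in which the 3 groups of libraries are shared.

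Related genes were counted from lists. In none of the 6 comparisons between Zn treatments was a locus called among the other NRAMP loci, the other CDF loci, other Mn carriers, Mn-dependent proteins or Al tolerance genes. Only 0.0230% to 0.124% of all tested loci were called there, so lists this short could hardly hold a call. In ZPR/ZPS 34.1% of all 24431 tested loci were called, 5014 higher and 3310 lower in roots. Between root and shoot in +Zn plants, 1 of 2 tested other NRAMP loci was higher in roots, the EIN2-like ethylene signalling gene Os07g0155600 (log2 1.28), and 1 was lower, Os03g0607400 (log2 -1.17), which passed the filter on low values through its shoot libraries alone, so that a difference was bound to appear. Of 5 tested other CDF loci 0 were higher and 1 lower, the Zn transporter gene OsMTP1 (Os05g0128400, log2 -1.57), while Os04g0298200 and Os02g0832700 did not pass. Of 5 tested other Mn carriers, OsIRT1 and OsIRT2, Fe transporters of the root surface, were higher, and OsVIT1, a vacuolar transporter, was lower (log2 -1.28). OsIRT2 passed the filter through the 3 ZPR libraries alone. OsIRT1 passed it through its root libraries, since fewer than 3 of its shoot libraries reached 0.5 FPKM. A difference was thus bound to appear for both. In -Zn plants, and likewise in resupplied plants, 0 of the 5 carriers were higher in roots and 1 was lower. OsIRT1 varied too widely within groups for its level to be read, at 2.91, 132 and 110 FPKM in ZPR. OsYSL6, a Mn-nicotianamine transporter, was at 11.1 to 32.5 FPKM in roots and did not pass.

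Of 8 tested Mn-dependent or Mn-related protein loci, 1 was higher and 4 lower in +Zn roots. The lower ones were PsbO, PsbP and PsbQ, which shield the Mn cluster of photosystem II, and Os11g0544500, a member of the UPF0016 family (log2 -1.89). PsbO was itself unsteady, at 79.1 FPKM in ZPS replicate 1 against 3382 and 3290.1 FPKM in the other ZPS libraries. The higher one was another UPF0016 gene, Os08g0528500 (log2 2.35). The MnSOD gene, for the mitochondrial superoxide dismutase that uses Mn, had 41.5, 49.4 and 51.8 FPKM in +Zn roots, against 107, 47.1 and 91.4 FPKM in -Zn roots, and was not called. Of 4 tested Al tolerance genes, 3 were higher in +Zn roots, 2 in -Zn roots and 2 in resupplied roots, beside 34.1% of all tested loci called in ZPR/ZPS. OsNRAT1 was higher too, but its difference was bound to appear. The 3 in +Zn roots were ART1, the transcription factor that acts upstream of OsNRAT1 (log2 2.70), STAR1, part of an ABC transporter (log2 3.03), and OsMGT1, a Mg transporter. OsALS1, a tonoplast ABC transporter, was at 50.1 to 59.7 FPKM in ZPR and did not pass, and STAR2 had no locus.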

How the data were processed

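Tools named in the submitters' processing notes are Bowtie2, Cuffdiff, Cufflinks, FastQC and TopHat. According to the methods, reads were aligned to IRGSP-1.0 and a read could have several alignments. The deposited tables hold, for every library, FPKM by locus and by isoform, and for isoforms a signal that is read here as coverage. Counts were not used here. Coverage over FPKM was constant within a library and served as the depth. Locus FPKM weights isoforms by length, so it depends little on how reads are split between them.

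Models of log2(FPKM + 0.5) were made in R 4.3.3 by limma 3.58.1, using lmFit and a trended eBayes with group as the only term, on the 9 libraries of a tissue, or on all 18 for root against shoot and interactions. A locus was tested if 3 or more libraries of the fit reached 0.5 FPKM, and adjusted p-values are Benjamini-Hochberg over these. The thresholds, a log2 fold change of 1 and an adjusted p of 0.05, are the study's. p-values rest on the spread between pools of seedlings, and an exact permutation test of 3 against 3 cannot go below 0.1, so none is given. The fit was checked on simulated data. Python 3.11.15, pandas 2.3.3, numpy 2.4.6 and matplotlib 3.10.9 were also used.

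All 9 genes were named. From each list of related genes, loci past the thresholds and up to 4 of the highest mean FPKM could be named. The genes and lists were chosen with earlier results of these data known. Likeness was Pearson's r over 18 libraries. Deviations from group means correlated between libraries of the same replicate number at 0.389, 0.131 and 0.113 in ZMR/ZPR, and above 0.1 also in ZMS/ZPS and ZRS/ZMS. In none of these comparisons did every library correlate best with the library of its own number. Pairing by replicate number is thus possible but not settled. The reported fits have no term for the replicate number, and the paired fit is an alternative. Alternatives were other pseudocounts, filters, scalings and models, zeros as missing, the replicate number as a block and each library left out. A sum of isoform FPKM and the transcripts of OsMTP11 alone were added after seeing the data. Columns named for leaves are the shoot libraries.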

Additional observations from a re-analysis of the deposited data

Results flagged for a closer look

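OsIRT2 (Os03g0667300) is an Fe transporter gene of the root surface and no NRAMP or MTP gene. It was called in the interaction test of the response to Zn deficiency, at -1.90 on the log2 scale (limma adjusted p 0.0192). In roots it was at 1.58, 1.78 and 2.46 FPKM in ZPR and at 0.0408, 0.0437 and 0.368 FPKM in ZMR, with no overlap. In the 9 shoot libraries it was at most 0.0278 FPKM, so no fold could be read there. The interaction thus holds the change in roots alone and shows no difference between the organs in response. The gene passed the filter on low values through the ZPR libraries alone, so a difference from ZPR was bound to appear. Without any one of these libraries it was not tested. The call was lost with a pseudocount of 0.1 (adjusted p 0.296), with a filter of 1 FPKM (0.0632), with the replicate block (0.276), without any single one of the ZPS or ZMS libraries and without ZMR replicate 2. OsIRT1, its neighbour, spread from 0.166 to 132 FPKM within roots. By the same test none of the 9 NRAMP and MTP genes passed the thresholds. OsNRAMP1 had an interaction of -2.22, which missed the threshold at an adjusted p of 0.0878 and passed it in 4 of 29 alternatives.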

How the results depend on the processing

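The count of the 9 genes called between root and shoot was 6 under every alternative run at each Zn supply. It includes OsNRAT1, whose call was bound to appear. The counts in the Zn comparisons were 0, with these exceptions, each of which was OsNRAMP1. In ZMR/ZPR the count was 1 with zeros as missing, with only the 6 libraries compared and with all 18 libraries in 1 fit, and 0 to 1 when 1 library was left out, with 1 without ZRR replicate 3. In ZRR/ZPR it was 1 with zeros as missing and with all 18 libraries in 1 fit. In the interaction (ZMR/ZPR)/(ZMS/ZPS) it was 1 with a pseudocount of 1 and with zeros as missing, and 0 to 1 when 1 library was left out, with 1 without ZRR replicate 1 and without ZRR replicate 3. With the replicate block the counts were 6 in each comparison of root with shoot and 0 in each comparison of Zn supply, and for OsNRAMP1 in ZMR/ZPR the paired fit gave a limma adjusted p of 0.125 beside 0.103 without the block, so the block changed no call of the 9 genes. Of 2454 values of single genes under the alternatives, 10 passed the thresholds where the reported one had not, none did the reverse, and 119 changed sign, none of them called and none larger than 0.43 in size as reported. The number of loci called over the whole table moved more, from 10 to between 10 and 104 in ZMR/ZPR, from 18 to between 9 and 73 in ZMS/ZPS, from 14 to between 4 and 58 in ZRS/ZMS, from 5 to between 0 and 46 in ZRS/ZPS, from 27 to between 17 and 110 in ZRR/ZMR, from 5 to between 1 and 113 in ZRR/ZPR, and from 16 to between 4 and 363 and from 26 to between 16 and 363 in the interactions. The highest of each was with zeros as missing. The cause was not tested. Precision differed between genes, with 95% intervals from -0.48 to 0.17 for OsNRAT1 in ZMR/ZPR to -1.84 to 0.78 for OsNRAMP5 in ZRS/ZMS. The merged locus of OsMTP11 and the overlapping opposite-strand loci limit what those values measure, and levels under 0.5 FPKM, as of OsNRAT1 in shoots, rest on little coverage.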
